A study of Mus musculus with 22 samples.

Results

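Across the hearts of single mice, 9 genes of the atrial chambers were followed: Sln, Myl4, Myl7, Bmp10, Pam, Kcnj3, Stard10, Nr2f2 and Hey1. They were chosen by symbol, as genes known for atrial expression, with earlier results of these data known. Every array probe whose RefSeq accession belonged to one of these symbols was taken. All 9 genes had probes, 12 in number, and all 9 were among the 15502 genes compared. The hearts came from 22 female C57BL/6 mice, bought at 5 to 7 weeks of age and acclimatised for 1 to 3 weeks. Each mouse received a single instillation into the trachea. The groups were nano-TiO2 day 1 (5 mice given 162 µg of nanosized titanium dioxide, heart taken after 1 day), control day 1 (5 mice given the vehicle, saline with cell-free lavage fluid of untreated mice), nano-TiO2 day 28 (6 mice) and control day 28 (6 mice). Each heart was put on an Agilent 2-colour array of its own in Cy5, against a Cy3 reference RNA pooled from 11 mouse cell lines, with no dye swap. A value below is the log2 ratio of heart to reference for 1 probe, so levels can be set against each other between hearts but not between genes. Hearts were cut into small pieces before freezing, and which chambers the extracted pieces held is not given in the sources used here.

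In the mouse the atria and the ventricles use different sets of contractile, membrane and secreted proteins. Atrial muscle cells carry their own myosin light chains and their own inhibitor of the calcium pump, secrete hormones from dense granules, and answer to acetylcholine through a potassium channel. Nuclear receptors of the COUP-TF class and factors of the Notch pathway help to set the atrial programme in the embryo. In bulk tissue, as used here, fewer cells of a type and less RNA per cell cannot be told apart.

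Promoters of the members are shown here because of 4 hearts described below. In these the light chain Myl7 had a high ratio and the ligand Bmp10 had a signal at or near background. The RefSeq promoter table (GRCm38.p6, 250 bases before to 50 bases after a gene's start) held 7 of the 9 members, and Sln and Hey1 were not among them. The motifs searched, on both strands, were the CArG box of serum response factor, the MEF2 site, the TATA box core TATAAA, the GATA site AGATAA, the nuclear receptor site AGGTCA, the T-box site AGGTGT and the E-box CACGTG. The promoter of Myl7 (chr11:5898733-5899032, minus strand) held a CArG box at positions -61 to -52 from the start, and that of Bmp10 (chr6:87428744-87429043, plus strand) held AGATAA at positions -219 to -214 and -33 to -28. Capitals mark these matches.
Myl7: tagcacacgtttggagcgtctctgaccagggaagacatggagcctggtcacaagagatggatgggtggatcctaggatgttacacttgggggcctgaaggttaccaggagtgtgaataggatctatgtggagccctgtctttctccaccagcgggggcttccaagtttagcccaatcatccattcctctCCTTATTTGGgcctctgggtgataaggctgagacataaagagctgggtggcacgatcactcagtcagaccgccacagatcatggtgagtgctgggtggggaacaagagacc
Bmp10: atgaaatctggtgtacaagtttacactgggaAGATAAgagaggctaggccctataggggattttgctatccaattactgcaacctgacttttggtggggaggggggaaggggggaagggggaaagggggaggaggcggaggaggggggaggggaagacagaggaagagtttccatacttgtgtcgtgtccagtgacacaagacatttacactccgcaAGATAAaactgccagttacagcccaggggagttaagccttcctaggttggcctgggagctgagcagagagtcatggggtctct
A CArG box stood in 1.63% and AGATAA in 11.2% of all 32851 promoters of the table. The only other match among the members was AGGTGT in Kcnj3, a motif found in 13.7% of promoters, and no match overlapped another.

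From 32.7% to 52.8% of the probes on an array lay well above background in the Cy5 channel, no spot was saturated, and arrays correlated with each other at r between 0.895 and 0.986. By its tissue label the material is heart, although the text on extraction names lung. The heart muscle genes Myh6, Tnnt2 and Actc1 were well above background on all 22 arrays, and the lung surfactant genes Sftpc and Sftpb on 0 of 22. Of the other listed lung genes, Sftpd and 1 of 2 Sftpa1 probes were well above background on 2 arrays each (highest values 2.55 and 1.65), and Scgb1a1, a secretory protein of airway club cells, on 6. Scgb1a1 was at 3.95 and 3.54 in control day 28 replicates 1 and 5 and at 0.52 or lower in the other 20 hearts. The cause of the differences between hearts given below was not tested.

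In 3 hearts the muscle genes of the atrium lay far below their level in most of the others. These were nano-TiO2 day 1 replicate 1, nano-TiO2 day 28 replicate 1 and control day 1 replicate 2. Sln encodes sarcolipin, a small membrane protein that inhibits the calcium pump of the sarcoplasmic reticulum. Its brighter probe was at 0.24, 7.49, 7.43, 7.59 and 7.45 in the nano-TiO2 day 1 hearts, against 5.95, 0.13, 6.74, 3.45 and 7.56 in the control day 1 hearts. The low heart of each group was not well above background, and replicate 4 of the controls lay between. The nano-TiO2 day 28 hearts had a lowest value of 0.22, also not well above background, a median of 7.33 and a highest of 7.57, against 7.18, 7.33 and 7.63 in the control day 28 hearts. All 6 control day 28 hearts thus lay within a narrow band of ratios. Each of the other groups held 1 heart in which Sln was not well above background. The Cy5 signals of the brighter probe, not normalized between arrays, ran wider in the control day 28 hearts, from 14.66 to 16.60 (log2). Control day 1 replicate 5 had a Cy5 signal of 13.30 at a ratio of 7.56, so near-equal high ratios can go with unlike signals.

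**Figure D1:**
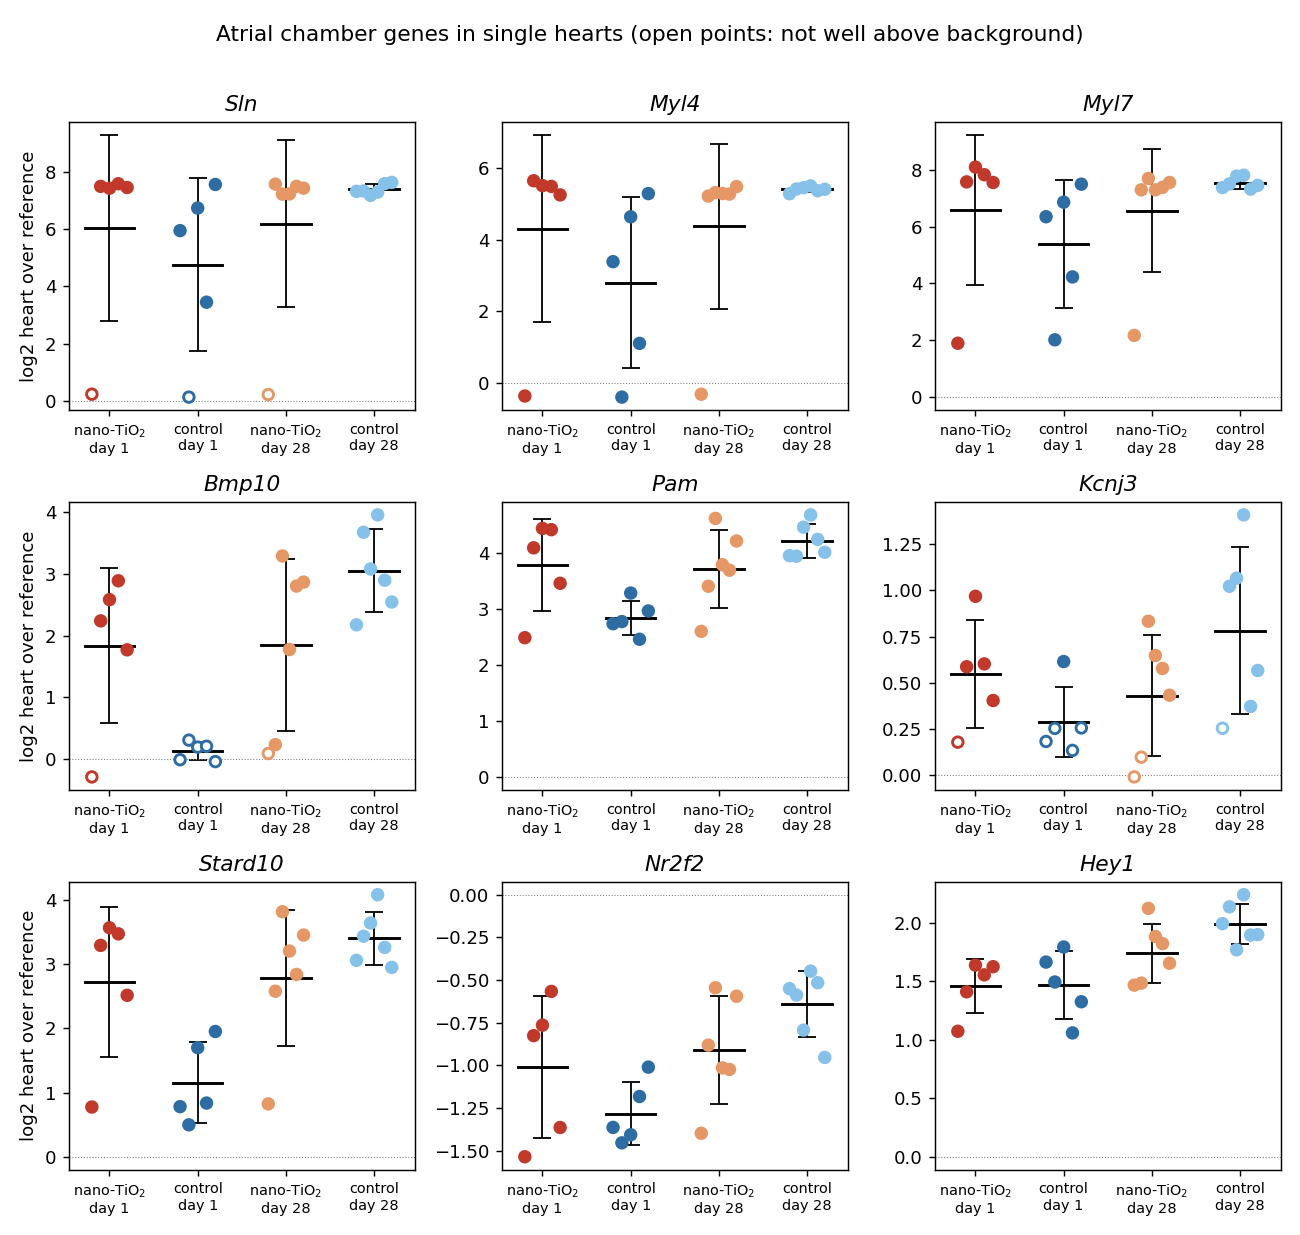
Log2 ratio of heart to reference (vertical axis) of each of the 9 genes in every heart, by group, with open points for hearts whose probe was not well above background. The 3 hearts near 0 for Sln also had the lowest values of Myl4 and Myl7 in their groups, while all 6 control day 28 hearts lay between 7.18 and 7.63 for Sln.

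Myl4 and Myl7, the essential and the regulatory myosin light chain of atrial muscle, were low in the same 3 hearts. Myl4 was at -0.36, 5.65, 5.51, 5.49 and 5.25 in the nano-TiO2 day 1 hearts, against 3.39, -0.39, 4.64, 1.11 and 5.29 in the control day 1 hearts. At day 28 the lowest, median and highest values of Myl4 were -0.31, 5.28 and 5.49 with nano-TiO2, against 5.29, 5.42 and 5.51 in controls. The control day 28 hearts had an SD of 0.07 for Myl4, the nano-TiO2 day 28 hearts one of 2.30. The Cy5 signals of Myl4, not normalized between arrays, ran from 13.84 to 15.88 (log2) in the control day 28 hearts. Myl7 was at 1.90, 7.57, 8.09, 7.82 and 7.55 in the nano-TiO2 day 1 hearts, against 6.35, 2.02, 6.86, 4.23 and 7.49 in the control day 1 hearts. At day 28 Myl7 ran over 2.17, 7.34 and 7.69 (lowest, median, highest) with nano-TiO2, against 7.32, 7.48 and 7.81 in controls. The groups overlapped for both light chains at both times. Both stayed well above background in all 22 hearts. In the 3 low hearts the Cy5 signal of Myl7 was 7.45 to 7.51 (log2) and that of Myl4 6.37 to 6.45. The brighter Sln probe, not well above background there, was at 6.09 to 6.14. The low values of Myl4 thus lie near the floor and may understate its drop. The other probe of Myl4 put the same 3 hearts lowest in their groups, at 0.04, -0.11 and 0.04.

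The spread of these 3 muscle genes stood out among all genes. The ranks are a description and no test, since the members were chosen with earlier results of these data known. Sln had the highest residual SD of all 15502 genes in the fit of the 4 groups, at 2.60 on the log2 scale, where the median gene had 0.17. Only 2 genes had a higher residual SD than Myl4 (2.07) and 3 a higher one than Myl7 (1.99). Bmp10 (1.01), Stard10 (0.87) and Pam (0.57) followed, with 61, 93 and 258 genes above them. Kcnj3 (0.34), Nr2f2 (0.29) and Hey1 (0.24) lay closer to the median gene.

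**Figure D2:**
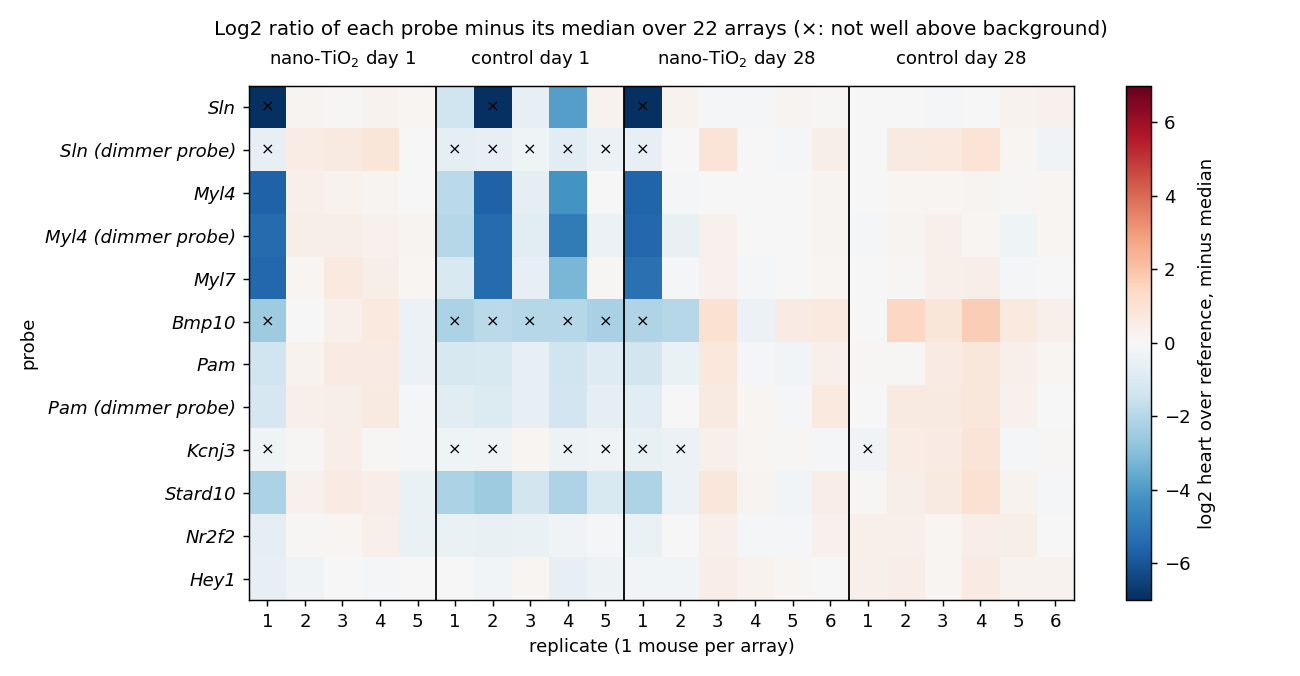
Each probe of the 9 genes (rows) in each of the 22 hearts (columns), coloured by its log2 ratio minus the median of that probe over all hearts, with a cross where it was not well above background. The 3 hearts without Sln signal are the lowest in the rows of the brighter Sln probe, Myl4 and Myl7. The Bmp10 row is marked as not well above background in all 5 control day 1 hearts.

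Bmp10 is a ligand of the BMP family that adult mouse atria secrete, mainly the right one. Bmp10 had a signal at or near background in the hearts without Sln signal and in others. It was at -0.29, 2.24, 2.58, 2.89 and 1.77 in the nano-TiO2 day 1 hearts, against -0.01, 0.31, 0.20, 0.21 and -0.04 in the control day 1 hearts. It was well above background in 4 of 5 nano-TiO2 hearts and in 0 of 5 controls. At day 28 the nano-TiO2 hearts had a lowest value of 0.09, a median of 2.29 and a highest of 3.29, against 2.17, 2.98 and 3.95 in controls. The lowest of these hearts was again nano-TiO2 replicate 1, the only day 28 heart not well above background, and replicate 2 was close to it at 0.24.

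Control day 1 replicates 1, 3 and 5 had Myl7 at 6.35, 6.86 and 7.49 and Bmp10 at -0.01, 0.20 and -0.04, not well above background. Nano-TiO2 day 28 replicate 2 was alike, with Myl7 at 7.29 and Bmp10 at 0.24. In these 4 hearts the atrial light chain was at 6.35 or more while the signal of the atrial ligand stayed at or near background. The Cy5 signal of Myl7 (log2, not normalized between arrays) was 12.57, 15.20 and 14.66 in these controls and 15.37 in the nano-TiO2 heart. In control day 28 hearts it was 15.71 to 17.39. Control day 1 replicate 5 shared a slide with 1 heart of each other group, which had 15.58 to 16.06 at near-equal ratios. The light chain may thus have been lower in these 4 hearts than its ratios show. The dimmer Sln probe was well above background in 4 of 5 nano-TiO2 day 1 hearts, with a highest value of 1.40, against 0 of 5 control day 1 hearts, with a highest value of 0.27. In control day 1 replicates 1, 3, 4 and 5 the brighter Sln probe was well above background and the dimmer was not. In nano-TiO2 day 28 replicate 2, where the Bmp10 signal was near background, the dimmer Sln probe was well above background at 0.59.

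**Figure D3:**
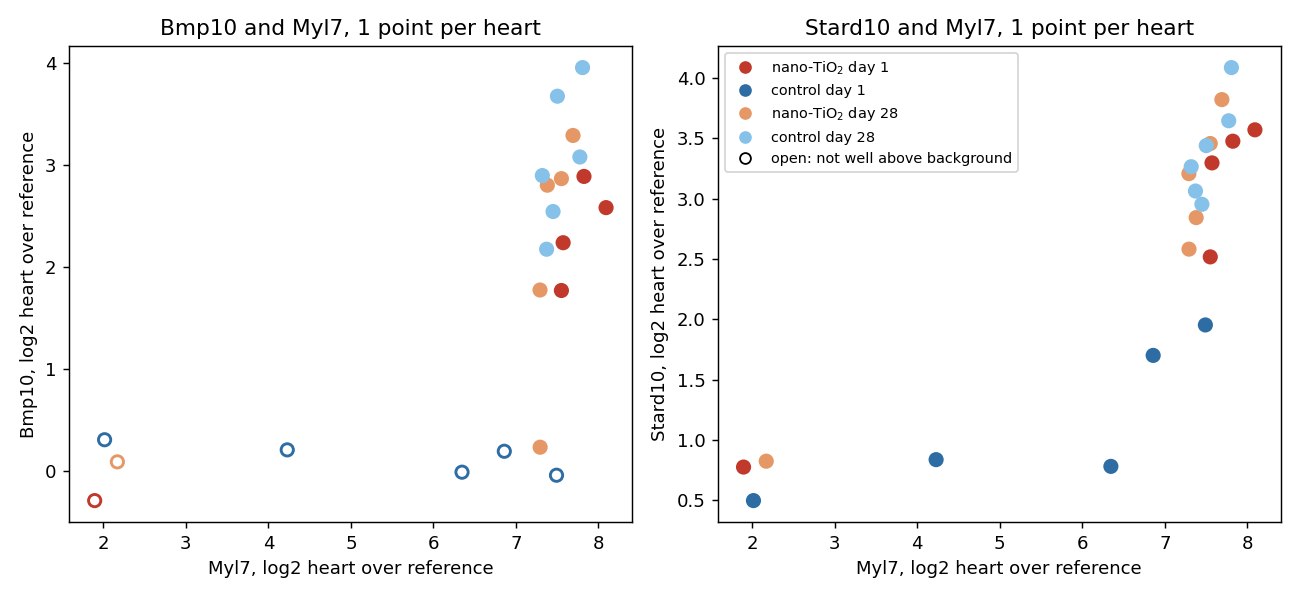
Bmp10 (left) and Stard10 (right) against Myl7, as log2 ratios of heart to reference, 1 point per heart, with open points where the gene on the vertical axis was not well above background. At the right, 3 control day 1 hearts lie with Myl7 between 6.35 and 7.49 while their Bmp10 stays at or below 0.20.

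Stard10 and Pam lay between these patterns. Stard10 encodes a lipid transfer protein that binds phosphatidylcholine and phosphatidylethanolamine. It was at 0.78, 3.30, 3.57, 3.48 and 2.52 in the nano-TiO2 day 1 hearts, against 0.78, 0.50, 1.70, 0.84 and 1.95 in the control day 1 hearts. At day 28 it ran over 0.82, 3.02 and 3.82 (lowest, median, highest) with nano-TiO2, against 2.95, 3.35 and 4.09 in controls. All nano-TiO2 day 1 hearts but replicate 1 lay above every control of that day. Pam, the amidating enzyme of secretory granules and a major membrane protein of atrial granules, was at 2.48, 4.09, 4.43, 4.41 and 3.45 in the nano-TiO2 day 1 hearts, against 2.73, 2.77, 3.28, 2.46 and 2.96 in the control day 1 hearts. At day 28 Pam ran over 2.60, 3.74 and 4.61 with nano-TiO2, against 3.94, 4.12 and 4.68 in controls. The dimmer Pam probe gave group means of 1.67 ± 0.73 at day 1 with nano-TiO2, against 0.79 ± 0.30 in the controls of that day (SD, n = 5 each). Across the 22 hearts, Spearman's rho between Pam and Stard10 was 0.96 (0.96 over the 19 hearts with Sln signal). For Myl4 and Myl7 it was 0.88 (0.82 over 19). Bmp10 had 0.75 with Myl4 and 0.72 with Myl7 (0.68 and 0.64 over 19). With Pam and Stard10 Bmp10 had 0.88 and 0.89 (0.86 and 0.88 over 19). Between the brighter Sln probe and the other 8 members rho ran from 0.18 to 0.56 (-0.20 to 0.32 over 19). Outside the hearts without Sln signal, most Sln ratios lay close together although Cy5 signals differed, so these ranks rest on small differences in ratio. All rho values here are descriptions over hearts that share slides and a reference.

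Kcnj3 encodes a subunit of the potassium channel that acetylcholine opens in atrial cells. It was dim, well above background in 14 of 22 hearts. It was at 0.18, 0.59, 0.97, 0.60 and 0.40 in the nano-TiO2 day 1 hearts, against 0.18, 0.25, 0.62, 0.13 and 0.26 in the control day 1 hearts, where only replicate 3 was well above background. At day 28 it ran over -0.01, 0.51 and 0.83 with nano-TiO2, against 0.25, 0.79 and 1.41 in controls, and the groups overlapped.

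The transcription factors had the smallest residual SDs of the 9. Nr2f2 (COUP-TFII), a nuclear receptor needed for atrial identity in mouse embryos, lay below the reference in every heart. It was at -1.54, -0.83, -0.76, -0.57 and -1.36 in the nano-TiO2 day 1 hearts, against -1.36, -1.45, -1.41, -1.18 and -1.01 in the control day 1 hearts. At day 28 it ran over -1.40, -0.95 and -0.55 with nano-TiO2, against -0.95, -0.57 and -0.45 in controls. Hey1, a repressor that Notch signalling switches on, was at 1.07, 1.41, 1.64, 1.56 and 1.63 in the nano-TiO2 day 1 hearts, against 1.67, 1.49, 1.79, 1.06 and 1.33 in the control day 1 hearts. At day 28 Hey1 ran over 1.47, 1.74 and 2.12 with nano-TiO2, against 1.77, 1.95 and 2.24 in controls. In control day 1 replicate 2, which had no Sln signal, Hey1 was at 1.49 and thus in the middle of its group.

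The comparison of nano-TiO2 with control at day 1 asked whether the instilled particles were followed by a change in the heart within a day. Of the 9 members 8 had a difference above 0, as did 54.2% of all genes, with a median of 1.20 over the members and 0.01 over all genes. No member passed: limma with Benjamini-Hochberg adjustment over all genes called 0 of 9 members and 0% of all genes. At an unadjusted p below 0.05, 3 of 9 members were higher with nano-TiO2, as were 6% of all genes. These were Stard10 (1.57 ± 0.49, SE), Bmp10 (1.70 ± 0.57) and Pam (0.93 ± 0.33), each with an adjusted p of 0.478 from limma. As Bmp10 was not well above background in any control of that day, its difference is a bound. In the Cy5 channel it was at least 2.79-fold higher with nano-TiO2, and the dimmer Sln probe at least 1.49-fold. Such a bound sets the bright group's mean against the floor of the dim arrays, the higher of the probe's own signal and the lowest signal of probes well above background. Myl4 (1.50 ± 1.17), Sln (1.27 ± 1.47) and Myl7 (1.20 ± 1.13) had errors about as large as their differences, and the 95% interval of Sln ran from -1.78 to 4.33. Kcnj3 differed by 0.26 ± 0.20, Nr2f2 by 0.27 ± 0.17 and Hey1 by -0.01 ± 0.14.

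The single low hearts decided several of these values. Without the 3 hearts lacking Sln signal, a choice made after seeing the data and on a member itself, limma called 40 of all genes at day 1 and 2 members, Stard10 (1.90, adjusted p = 0.00762) and Pam (1.24, adjusted p = 0.0436), while Bmp10 was at 2.28 with an adjusted p of 0.0503. Without control day 1 replicate 4 as well, Stard10 alone was called among the members (1.74, adjusted p = 0.0466). Plain subtraction of the background turned the Sln difference to -0.25. Within the 4 slides that held both groups of day 1, the Bmp10, Pam and Stard10 differences were above 0 on 3 slides and below 0 on 1.

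At day 28 all 9 members had a difference below 0, while 48.1% of all genes had one above 0. The median was -0.62 over the members and -0.01 over all genes. Limma called 0 of 9 members and 0% of all genes. Bmp10, at -1.21 ± 0.52 (SE, 6 against 6 mice, limma adjusted p = 0.642), was the only member lower at an unadjusted p below 0.05, as were 5.38% of all genes. Sln differed by -1.20 ± 1.35, Myl4 by -1.03 ± 1.07, Myl7 by -0.97 ± 1.03 and Stard10 by -0.62 ± 0.45. Leaving out the hearts without Sln signal, which here removes nano-TiO2 replicate 1, brought Myl4 to -0.09, Myl7 to -0.10 and Bmp10 to -0.86. On 4 of the 6 slides holding both groups Bmp10 was lower with nano-TiO2, and on 2 it was higher.

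Tested directly, the day 28 difference minus the day 1 difference gave 0 of 9 members and 0% of all genes called by limma. Bmp10 (-2.91 ± 0.78, limma adjusted p = 0.119), Stard10 (-2.19 ± 0.67), Pam (-1.43 ± 0.45), Kcnj3 (-0.61 ± 0.27) and Nr2f2 (-0.54 ± 0.23) had an unadjusted p below 0.05 on the lower side, which 9.95% of all genes had. Without nano-TiO2 day 1 replicate 1, limma called 311 genes here, and without nano-TiO2 day 28 replicate 3 it called 178, with 3 and 1 members among them.

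**Figure D4:**
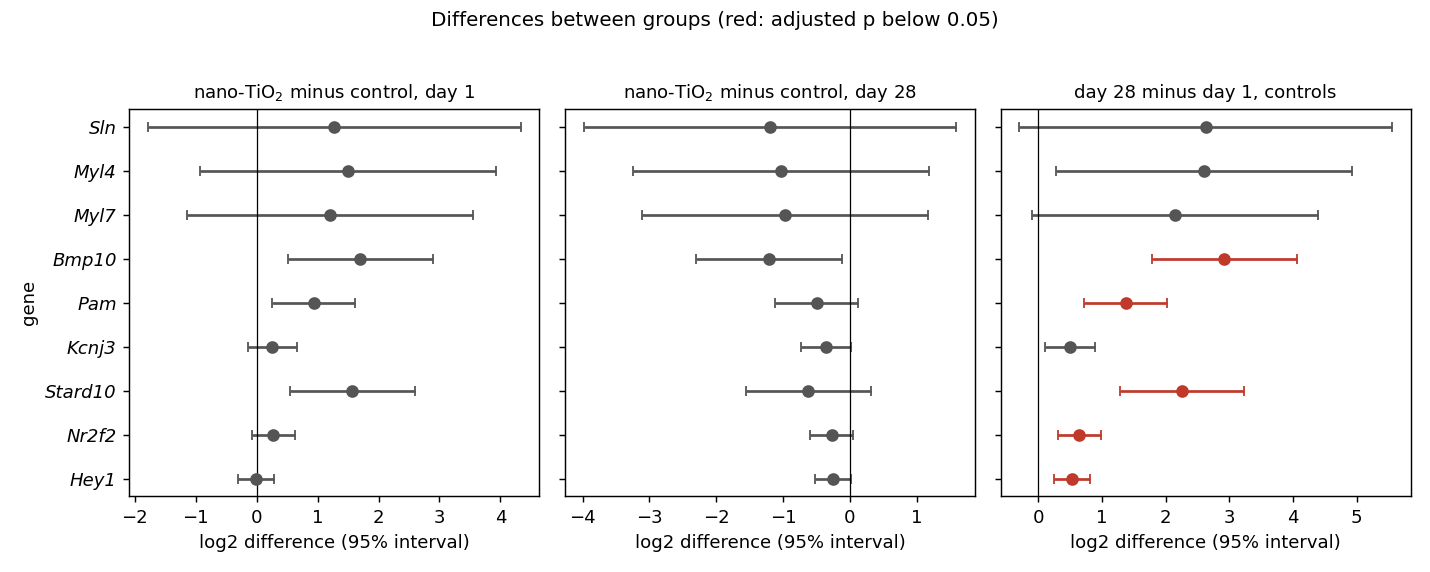
Differences between groups for each gene, as log2 with 95% intervals from limma: nano-TiO2 minus control at day 1 and at day 28, and day 28 minus day 1 in controls. The 5 genes in red had an adjusted p below 0.05, all in the controls, and the intervals of Sln, Myl4 and Myl7 were the widest of the 9.

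Of the 5 comparisons, only that of the vehicle-treated mice at day 28 with those at day 1 gave called genes. Between day 28 and day 1 controls limma called 5 of 9 members higher, as it did 7.02% of all genes, and 0 lower, as it did 3.44%. All 9 members had a difference above 0, against 49.4% of all genes, with a median of 2.15 over the members and 0.00 over all genes. Bmp10 averaged 3.05 ± 0.67 (SD, n = 6) in the day 28 controls, against 0.13 ± 0.15 (SD, n = 5) in the day 1 controls, a fitted difference of 2.92 ± 0.55 (SE, limma adjusted p = 0.00371). In the Cy5 channel this was at least 5.92-fold, and the dimmer Sln probe was at least 1.58-fold higher. Stard10 averaged 3.41 ± 0.42 at day 28, against 1.15 ± 0.63 at day 1 (difference 2.25 ± 0.47, limma adjusted p = 0.00584). Pam averaged 4.21 ± 0.30 at day 28, against 2.84 ± 0.30 at day 1 (1.37 ± 0.32, limma adjusted p = 0.00932). Nr2f2 averaged -0.64 ± 0.19 at day 28, against -1.28 ± 0.18 at day 1 (0.64 ± 0.16, limma adjusted p = 0.0155). Hey1 averaged 1.99 ± 0.17 at day 28, against 1.47 ± 0.29 at day 1 (0.52 ± 0.14, limma adjusted p = 0.0182). For 4 members (Bmp10, Pam, Stard10 and Nr2f2) every day 28 control lay above every day 1 control, which held for 4.67% of all genes.

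The 3 muscle genes and the channel did not pass in this comparison. Sln differed by 2.63 ± 1.41 (SE, limma adjusted p = 0.254), Myl4 by 2.60 ± 1.12 (adjusted p = 0.144), Myl7 by 2.15 ± 1.08 (adjusted p = 0.218) and Kcnj3 by 0.49 ± 0.19 (adjusted p = 0.0968). The day 1 controls held a heart without Sln signal and another with little of it. Without the 3 hearts lacking Sln signal Myl4 (1.80, adjusted p = 0.0249) and Myl7 (1.31, adjusted p = 0.038) passed as well. Without control day 1 replicate 4 too, Myl4 was at 0.97 (adjusted p = 0.0304) and Myl7 at 0.64 (adjusted p = 0.0619), and Hey1 no longer passed (0.39, adjusted p = 0.0966). Both choices were made after seeing the data and on hearts low in Myl4 and Myl7 themselves, so these passes are no support. The nano-TiO2 hearts left out enter this comparison only through the pooled spread.

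With slide as a fixed block, limma called 0 members and 0 genes in all between the control groups. Bmp10 was then at 2.67 with an adjusted p of 0.0938, Stard10 at 1.74 with 0.104, Pam at 1.14 with 0.112, Nr2f2 at 0.62 with 0.142 and Hey1 at 0.41 with 0.221. With slide as a random block the same 5 members had adjusted p-values between 0.00359 and 0.0181. Within the 3 slides that held controls of both times, Bmp10 was higher at day 28 by 1.86 to 2.93, Stard10 by 1.31 to 2.57, Pam by 1.18 to 1.28 and Nr2f2 by 0.49 to 0.90, and Hey1 was higher on 2 of the 3. Fitting the background model on all spots ended the 5 calls too (Bmp10 2.53, adjusted p = 0.0608), and with median centring in place of loess only Bmp10 passed (2.22, adjusted p = 0.0377). Without control day 28 replicates 1 and 5, the hearts with Scgb1a1, limma called 753 genes and 4 members, Bmp10 (3.18, adjusted p = 0.0145), Stard10 (2.38, adjusted p = 0.0206), Kcnj3 (0.73, adjusted p = 0.0263) and Pam (1.43, adjusted p = 0.0285), while Hey1 (0.54, adjusted p = 0.0507) and Nr2f2 (0.59, adjusted p = 0.0702) did not pass.

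Between day 28 and day 1 with nano-TiO2, limma called 0 of 9 members and 0% of all genes, of which 697 had an unadjusted p below 0.05. The member differences ran from -0.12 to 0.28, with a median of 0.06. This comparison, the comparisons with controls and the comparison of the controls with each other share hearts and are not independent: the 5 day 1 controls enter both the day 1 difference and that between control groups.

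Of 21 further genes listed for atria and conduction tissue, 13 were tested. Cacna1d, Nr2f1, Shox2 and Isl1 were well above background in no heart, and Hcn4 was not matched to a probe. Between day 28 and day 1 controls limma called 5 of the 13 higher, as it did 7.02% of all genes, and 0 lower, with a median of 0.31. Dkk3, a secreted protein of the Dickkopf family, differed by 3.45 ± 0.72 (SE, limma adjusted p = 0.00575), Mybphl, a myosin-binding protein of the atria, by 3.45 ± 1.04 (adjusted p = 0.0362) and Fgf12 by 3.15 ± 0.66 (adjusted p = 0.00596). Gja5, the gap junction protein connexin 40 of atria and conduction fibres, differed by 2.42 ± 0.52 (adjusted p = 0.00641) and the T-box factor Tbx5 by 1.09 ± 0.34 (adjusted p = 0.0434). At day 1, 0 of the 13 were called between nano-TiO2 and control, and those with the smallest p were Fgf12 (2.14 ± 0.69), Gja5 (1.66 ± 0.54) and Tbx5 (1.09 ± 0.36), each with a limma adjusted p of 0.478. Nppa, the atrial natriuretic peptide, did not drop with Sln. It ran from 4.69 to 5.52 over the 22 hearts and was at 5.11, 4.98 and 5.23 in the 3 hearts without Sln signal (nano-TiO2 day 1, nano-TiO2 day 28 and control day 1).

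Between the control groups a list of working cardiomyocyte genes ran the other way, with a median of -0.36 and 7 of 8 genes lower. The ventricular genes did so too, so a drop was not particular to them. Of 10 tested, limma called 3 lower at day 28, as it did 3.44% of all genes, and 0 higher, with a median of -0.34: Irx4, a ventricular transcription factor (-0.72 ± 0.17, adjusted p = 0.0119), Mybpc3, cardiac myosin-binding protein C (-0.60 ± 0.16, adjusted p = 0.0218), and the ventricular light chain Myl3 (-0.46 ± 0.13, adjusted p = 0.0296). Phospholamban (Pln), which acts on the same pump as sarcolipin and is mainly ventricular, was also lower (-0.57 ± 0.14, adjusted p = 0.0129), and the pump Atp2a2 was at -0.36 ± 0.13 (adjusted p = 0.0864).

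Among receptors and targets of BMP10 in these controls, 4 of 10 tested genes were called higher by limma, against 7.02% of all genes, and 0 lower. These were Id2 (0.96 ± 0.27, adjusted p = 0.0277), the inhibitory Smad6 (0.55 ± 0.16, adjusted p = 0.0281), Id1 (0.33 ± 0.10, adjusted p = 0.0375) and Id3 (0.34 ± 0.11, adjusted p = 0.048), while the receptor Acvrl1 was at 0.01 ± 0.09. Of 5 genes tested around the acetylcholine-operated potassium current limma called 0, and 0 had an unadjusted p below 0.05. Chrm2, the muscarinic receptor of the heart, was at 0.05 ± 0.09 (adjusted p = 0.772). Of 5 Notch and COUP-TFII partners limma called 0, and at an unadjusted p below 0.05 it found 1 higher and 1 lower, where 14.9% of all genes were higher and 10.4% lower. Nrp2, coding for a receptor on veins and lymphatics, was at -0.25 ± 0.09 (adjusted p = 0.0856) and the Notch ligand Jag1 at 0.19 ± 0.08 (adjusted p = 0.157).

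Markers of fat, vessel wall and the outer lining of the heart were higher in day 28 than in day 1 controls. Of the adipocyte list 6 of 7 tested genes were called higher by limma (median 4.77), of the smooth muscle list 5 of 6 (median 1.80), and of the mesothelium list 6 of 6 (median 1.38). None of these 3 lists had a gene called lower, and 7.02% of all genes were called higher. In control day 1 replicates 1, 3 and 5, with Myl7 at 6.35 or more, the adipocyte means were 1.19, 1.24 and 2.58 and the smooth muscle means 0.33, 0.13 and 0.53. The mean of the adipocyte list ran from 1.20 to 6.06 in nano-TiO2 day 1 hearts, against 1.16 to 2.58 in control day 1 hearts, and from 1.31 to 5.73 in nano-TiO2 day 28 hearts, against 3.68 to 6.68 in control day 28 hearts. The smooth muscle mean ran from 0.28 to 1.86 in nano-TiO2 day 1 hearts, against -0.09 to 0.53 in control day 1 hearts, and from 0.04 to 1.73 in nano-TiO2 day 28 hearts, against 1.52 to 2.29 in control day 28 hearts. The mesothelium mean ran from -1.11 to 0.33 in nano-TiO2 day 1 hearts, against -1.45 to -0.54 in control day 1 hearts, and from -0.84 to 0.38 in nano-TiO2 day 28 hearts, against -0.08 to 0.59 in control day 28 hearts. At day 1, limma called 0 genes of these 3 lists between nano-TiO2 and control, where 5 of 7 adipocyte, 4 of 6 smooth muscle and 5 of 6 mesothelium genes were higher at an unadjusted p below 0.05, as were 6% of all genes. Adipoq, the fat hormone adiponectin, was at -0.20, 0.09 and -0.15 in the 3 hearts in which Sln was not well above background. Ucp1, the uncoupling protein of brown fat, was between -0.07 and 0.19 in all 5 day 1 controls. Their part in the differences of the atrial genes was not tested.

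The working cardiomyocyte list was measured in every heart, with means between 5.16 and 5.76, and 2 of its 8 genes (Tnni3 and Tnnt2) were called lower in day 28 than in day 1 controls. In the 3 hearts without Sln signal that mean was 5.76 and 5.69 with nano-TiO2 and 5.76 in the control, and the ventricular mean 3.73, 3.60 and 3.78, both in the upper part of the range over all hearts. Of 5 fibroblast genes 1 was called higher between the control groups.

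**Figure D5:**
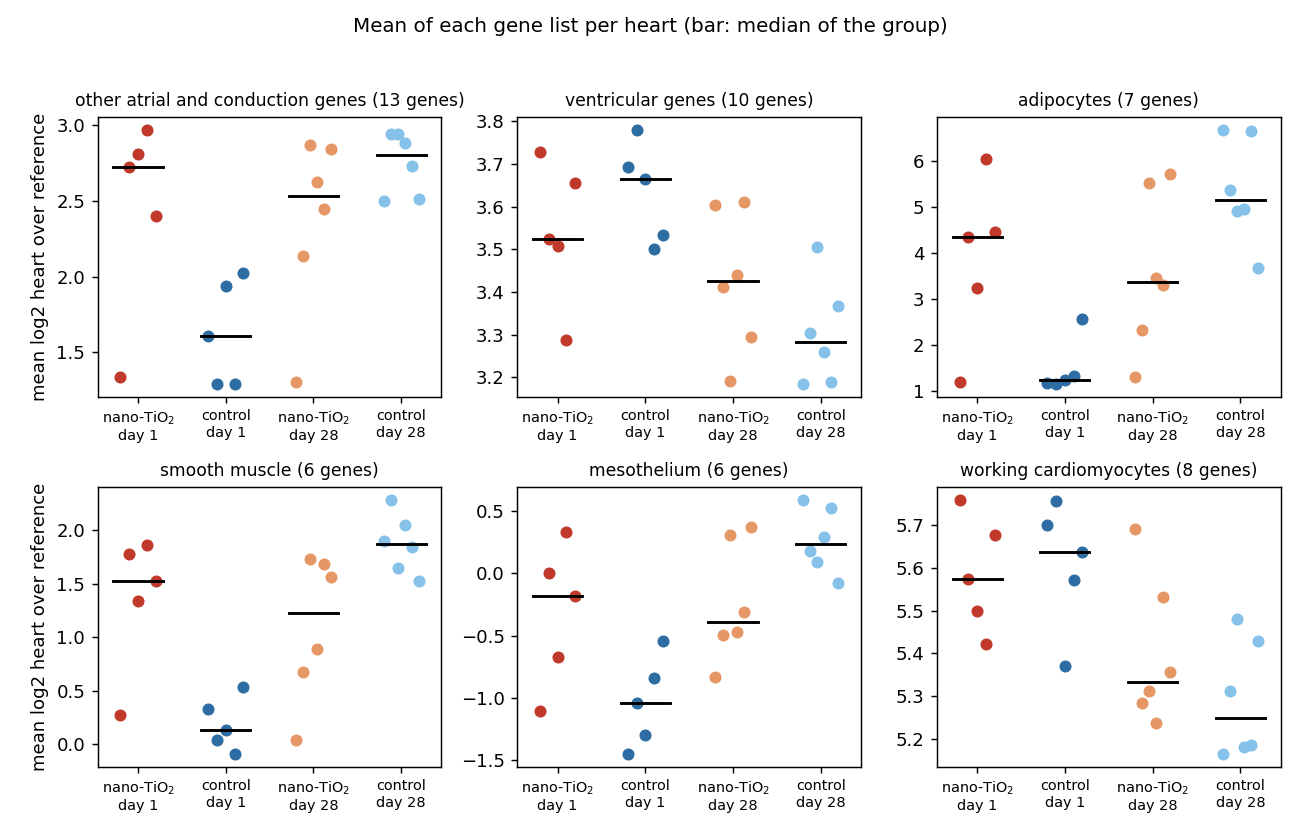
Mean log2 ratio of heart to reference of 6 gene lists in each heart, by group, with a bar at the median of the group. The adipocyte mean stays between 1.16 and 2.58 in control day 1 hearts and between 3.68 and 6.68 in control day 28 hearts, and the ventricular mean lies between 3.18 and 3.78 in all hearts.

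Genes whose pattern over the 22 hearts was most like the members were ranked by Spearman's rho with the mean of the 9 scaled members. Dkk3 (0.98, and 0.98 over the 19 hearts with Sln signal), Slc7a7 (0.97 and 0.95), Fgf12 (0.96 and 0.95) and Antxr1 (0.96 and 0.94) came first. DXBay18, Sds, Comp and Gng2 followed, at 0.96 each. Sds, coding for serine dehydratase, was well above background in 16 hearts and ran from -0.08 to 2.42. Dkk3 and Fgf12 belong to the further atrial list above. The 4 genes with the lowest rho were Lpl (-0.95), the lipase that frees fatty acids at the vessel wall, Asb5 (-0.93), Crat (-0.92), the carnitine acetyltransferase of mitochondria, and Ndufs6 (-0.90), a subunit of respiratory complex I. Lpl ran from 5.62 to 6.95 over the hearts.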

How the data were processed

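The deposited scanner files of the authors hold median foreground and local background intensities in both channels, not normalized, together with a log10 ratio of the scanner software, Agilent Feature Extraction, which is version 10.7.3.1 per the file headers and 9.5.3.1 per the submitters' processing notes. A series matrix deposited beside them holds log2 values of the authors, whose method is not given in the sources used here. It was used as an alternative, as was the scanner log10 ratio. Median intensities were used, since the files hold no means.

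Background was corrected with normexp (offset 50, parameters fitted without spots marked for uneven background) and each array normalized by loess (span 0.3, control and marked spots at weight 0) in limma 3.58.1 (R 4.3.3, data.table version 1.17.8). Marked spots (0.299%) were left out and spots of 1 probe averaged. A probe was kept where at least 5 of 22 arrays had it well above background in Cy5, which left 19273 of 41174. RefSeq accessions matched 23374 probes to symbols. Each gene took its brightest kept probe, by mean Cy5 signal. One limma fit with 4 group means and eBayes gave 5 contrasts, adjusted by Benjamini-Hochberg over 15502 genes, threshold 0.05. The fit was also run on simulated data with independent noise. These held no slide effects, detection floor or single low hearts, so that run cannot speak to them. Arrays number 22, on 9 slides scanned on 3 days, and their number limits the precision. P-values measure the spread between arrays of 1 mouse each, in which mouse, piece of heart, slide and scan day are not separated. Figures were drawn with Python 3.11.15, pandas 2.3.3 and matplotlib 3.10.9.

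The named genes are the 9 members, up to 3 genes of each list with the smallest p or those called, markers that check the tissue, the 8 genes with the highest and the 4 with the lowest rho. Others were named after their values were seen. Some genes of the lists are not reported here. In a list mean, a spot left out on an array took its gene's mean. The members and lists were chosen with earlier results of these data known. So was the background model: leaving spots with uneven background out of it was decided in an earlier analysis of these arrays, once values from all spots were known, and the calls between day 28 and day 1 controls depend on it. Replicate numbers follow deposit order and pair nothing. Alternatives changed background correction, normalization, filter, probe choice, moderation, array weights, slide or scan day as a block, and the hearts included.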

Additional observations from a re-analysis of the deposited data

Results flagged for a closer look

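In each of the 36 combinations of a member and a group, the highest or lowest heart was set against the others by its gap relative to the range of the group, a test by which chance picks out about 1 in 20 groups. It picked out 7. The members were measured in the same hearts and chosen with earlier results of these data known, so this count cannot be set against that rate. Nano-TiO2 day 1 replicate 1 stood apart in Sln (0.24, nearest other heart 7.43), Myl4 (-0.36, nearest 5.25) and Myl7 (1.90, nearest 7.55). Nano-TiO2 day 28 replicate 1 stood apart in Sln (0.22, nearest 7.22), Myl4 (-0.31, nearest 5.22) and Myl7 (2.17, nearest 7.29). Control day 1 replicate 3 stood apart in Kcnj3 at 0.62, where the nearest of its group was at 0.26 and not well above background. Control day 1 replicate 2, the third heart without Sln signal, was not picked out, since replicate 4 of its group lay between it and the others.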

How the results depend on the processing

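In all, 43 alternatives were run, and the causes of the changes below were not tested. Between day 28 and day 1 controls, 5 members were called, and 0 with normexp fitted on all spots, 1 with median centring and 0 with slide as a fixed block, with 4 to 6 on leaving out single hearts. All genes called there, 1623, became 79, 87 and 0 under these 3, 3865 with scanner log ratios, 2559 with array weights, 642 without 4 hearts low in Sln, 753 without the 2 hearts high in Scgb1a1, and 958 to 2069 without single hearts. The median of the members, 2.15, became 1.16 with plain subtraction, 1.21 with scanner log ratios, 1.27 with the other probes of Sln, Myl4 and Pam, 1.14 with the slide block, 1.35 without the 3 hearts lacking Sln signal, 0.64 without 4, and 1.35 to 2.45 without single hearts. For nano-TiO2 at day 1, where 0 genes were called, the count was 1 with plain subtraction, 7 with scanner log ratios, 4 with array weights, 0 to 21 without single hearts (21 without nano-TiO2 replicate 1), 40 without 3 hearts (2 members) and 15 without 4 (1 member). At day 28 it was 1 with plain subtraction, 8 without the 2 hearts high in Scgb1a1 and 0 to 3 without single hearts, with 0 members under any alternative. For the difference of the differences it was 45 with scanner log ratios, 66 with array weights, 6 with scan day as a block, 0 to 311 without single hearts (0 to 3 members), 95 without 3 hearts (3 members) and 16 without 4, where the median of the members was -0.96 and not -2.17. Between day 28 and day 1 with nano-TiO2, 0 genes were called on leaving out any single heart.

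The Sln difference at day 1 reversed to -0.25 with plain subtraction. That of Hey1, -0.01, reversed to 0.017 without background subtraction, 0.13 with normexp on all spots, 0.20 with median centring, 0.018 with scanner log ratios, 0.0075 with the slide block and 0.097 without the 3 hearts, and ran from -0.11 to 0.090 without single hearts. By replicate number, no paired analysis was possible because these numbers follow deposit order. Hearts that share a slide were compared through the slide block and within slides, as given in the results. Bmp10, Kcnj3 and the dimmer Sln probe lie near background in many hearts, which limits their low values to bounds. Myl4 lies near the floor in the 3 hearts lacking Sln signal. The alternatives without 2, 3 and 4 hearts were added after seeing the data, and those without 3 and 4 select on Sln itself.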
